A study of Mus musculus with 8 samples.

Results

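Interferon-stimulated genes are transcribed when a cell senses interferon or, for some of them, viral nucleic acid directly. Their levels were examined in primary mouse calvarial osteoblasts, the bone-forming cells of the skullcap, after exposure to parathyroid hormone (PTH). The 39 genes were chosen by symbol from the deposited gene counts, taking the entry with the highest mean count where a symbol had several, out of 47706 entries in all. Each of the 39 had 1 entry, and each was among the 16736 genes that passed the filter on low counts.

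RNA was sequenced from 8 cultures of cells taken from newborn mice. Per the labels, all had been differentiated for 7 days and were then given PTH (4 cultures) or vehicle (4 cultures) for 24 hours. The labels call the differentiation adipogenic, whereas the study's methods describe osteogenic medium followed by serum starvation before PTH. Strain and genotype are not given in the labels, and the prefix Con in the sample names is not explained there. The study infected cultures of the same kind with adenovirus encoding Cre or GFP for gene deletion, and whether the sequenced cultures received virus is not given in the sources used here. Nothing says that the 4 samples of a group came from separate animals, so the p-values measure the spread between these samples, which may be technical.

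Type I interferons bind the receptor pair IFNAR1 and IFNAR2, whose kinases JAK1 and TYK2 phosphorylate STAT proteins. A complex that holds STAT2 and IRF9 then binds a DNA sequence called the interferon-stimulated response element. Type II interferon acts through IFNGR1 and IFNGR2 and leads to binding of the gamma-activated site. In bone, interferons are best known for restraining the formation of osteoclasts. PTH acts on osteoblasts through PTH1R, a receptor that raises cAMP.

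Total counts ranged from 33605610 (PTH 2) to 56090654 (PTH 1), and the first principal component separated the treatments with 62.8% of the variance. The labels were checked with Tnfsf11, the osteoclast-inducing cytokine that PTH is known to raise in osteoblasts. It lay between 0.987 and 1.79 CPM (counts scaled to a common library size) in vehicle and between 115 and 157 CPM in PTH cultures. All 10 osteoblast markers were measured, with a median over the list between 208 and 353 CPM per culture. With PTH, 4 of them (Sp7, Dmp1, Pth1r and Runx2) fell, which is 40%, beside 22.5% of all genes tested. Macrophage markers were present too, and their values are given beside the results. Lymphoid and plasmacytoid markers summed to at most 0.181 CPM in any culture, with Cd3e, Cd3d and Ncr1 at 0 in all 8.

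Of the 39 interferon-stimulated genes, 9 were upregulated, 10 were downregulated and 20 did not pass the threshold (edgeR's quasi-likelihood test, Benjamini-Hochberg adjusted p under 0.05). PTH changed 45.8% of all genes tested, 23.3% upward and 22.5% downward, so a share of 48.7% among these genes was near the background in both directions. Their median log2 fold change was -0.01, beside -0.0008 over all genes, and their median absolute log2 fold change was 0.36, beside 0.35. The 4 PTH values lay entirely above the 4 vehicle values for 6 members and entirely below for 9, which is 15 of 39 beside 43% of all genes. Only 2 members, Trim25 and Ifit1, passed the threshold with an absolute log2 fold change of 1 or more, a bound that 11.2% of all genes met. The values below describe which members rose and which fell. In bulk samples, fewer cells of a type and less RNA per cell cannot be told apart.

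**Figure D1:**
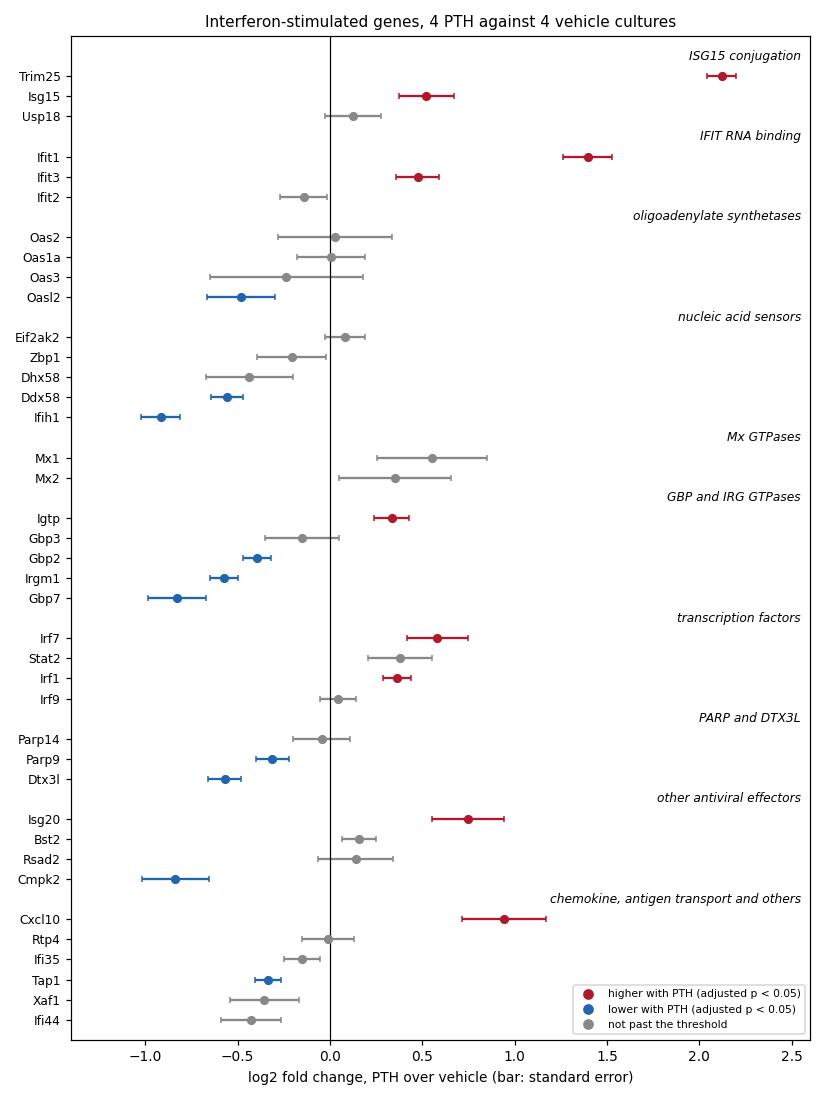
Log2 fold change of PTH over vehicle for the 39 interferon-stimulated genes, grouped by role, with the standard error from edgeR as bars. Red points passed the threshold upward (9 genes, from 0.33 to 2.12), blue points passed downward (10 genes, from -0.92 to -0.31) and grey points did not pass (20 genes).

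To show a regulatory sequence known from interferon-stimulated genes, promoter windows of 300 bases (250 before and 50 from the start) were taken from RefSeq on GRCm38.p6 for the 30 members that have an entry. The letters GAAANNGAAA, the core of the interferon-stimulated response element, were sought on both strands. The core was found in 17 of the 30 members (56.7%), beside 3.99% of 27025 genes with a window. Trim25, the member with the largest increase, was among the 13 without a match. The called members held it in both directions, with 5 of 9 upregulated and 5 of 9 downregulated genes, and so did 7 of 12 genes that did not pass. The stretches below show the core in capitals for upregulated and downregulated members, with 25 bases on each side where the start of the gene allows, and are printed on the strand of the gene. A capital run that begins with TTTC is the core read from the other strand. Stretches that overlap an annotated exon of the same gene were left out.
Ifit1, chr19:34640760-34640838, plus strand: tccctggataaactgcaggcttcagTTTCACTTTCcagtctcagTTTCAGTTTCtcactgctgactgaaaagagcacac
Cxcl10, chr5:92349068-92349127, minus strand: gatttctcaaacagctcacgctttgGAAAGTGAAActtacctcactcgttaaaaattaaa
Isg15, chr4:156200850-156200921, minus strand: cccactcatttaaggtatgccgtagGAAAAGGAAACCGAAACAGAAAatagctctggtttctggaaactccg
Ifit3, chr19:34583348-34583441, plus strand: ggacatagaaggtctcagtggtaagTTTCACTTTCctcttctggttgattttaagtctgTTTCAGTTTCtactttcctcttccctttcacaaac
Igtp, chr11:58199497-58199555, plus strand: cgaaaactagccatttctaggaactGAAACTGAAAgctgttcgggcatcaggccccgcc
Gbp7, chr3:142530258-142530317, plus strand: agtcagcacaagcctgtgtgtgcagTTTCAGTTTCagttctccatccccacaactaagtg
The neighbours Ifit1 and Ifit3 both carry 2 cores, and Isg15 carries 3 that overlap one another, while Cxcl10, Igtp and Gbp7 carry 1 each. Counted from the RefSeq start of the gene as 0, the first base of the core lay at -104 and -85 in Ifit1. It lay at -156 and -122 in Ifit3 and at -53 in Gbp7. Among the other downregulated members, Irgm1 held overlapping cores from -30 and -24 and Gbp2 held 1 from -59. The stretches of both overlap an annotated exon of the same gene and were left out above. These cores may therefore lie within the transcribed region. In Ddx58 (2) and Ifih1 (32) the core began after the RefSeq start.

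The gamma-activated site, sought as TTCNNNGAA, was in 9 of the 30 members with a window (30.0%), beside 9.55% of all genes. Of the 9 genes, 3 were upregulated (Isg20, Irf1 and Igtp), 1 was downregulated (Gbp7) and 5 did not pass. The full cAMP response element, TGACGTCA, was in 0 of the 30, beside 2.03% of all genes. A match is a run of letters in this window only. Of the 36 windows of these members, 25 have a start that lies in the first 60 bases of a GENCODE transcript. Parp14, Mx1, Rtp4, Usp18, Parp9, Oas2, Zbp1, Mx2 and Dhx58 were not analysed here for motifs.

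**Figure D2:**
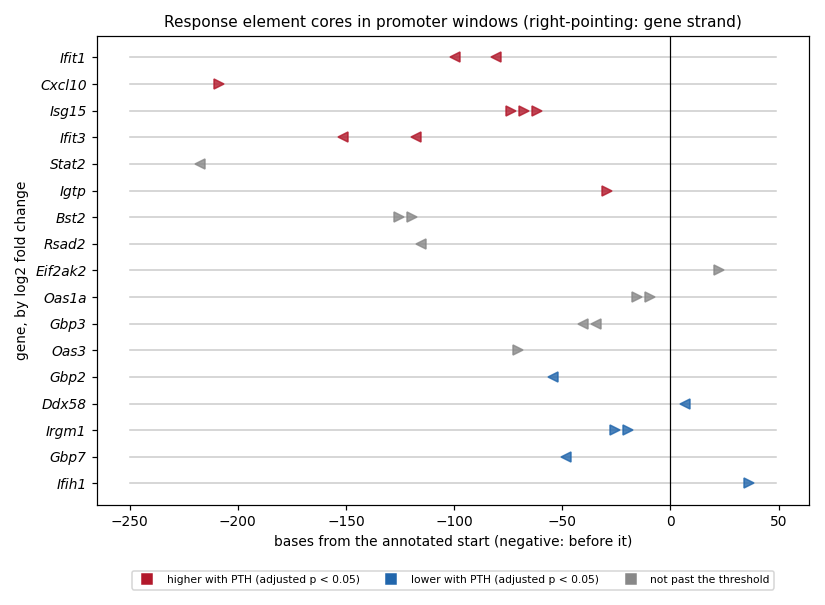
Positions of the response element core in the promoter windows of the 17 members that hold it, in bases from the RefSeq start (negative values lie before it), ordered by log2 fold change. Triangles point right for the gene strand and left for the other strand, and red, blue and grey mark upregulated (5), downregulated (5) and not called genes (7).

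The largest increase was in the ISG15 system, in which the ubiquitin-like protein ISG15 is attached to target proteins. Trim25, which encodes an E3 ligase that ubiquitinates RIG-I and is itself able to conjugate ISG15, lies at chr11:88999376-89020293 (GRCm38, plus strand). It was at 42.2, 39.5, 42.5 and 39.3 CPM in vehicle cultures 1 to 4 and at 199.6, 178, 159 and 175 CPM in PTH cultures 1 to 4. Every PTH culture stood far above every vehicle culture. Trim25 rose 4.35-fold (log2 fold change 2.12, SE 0.077, adjusted p = 6.49e-10). Isg15 itself was at 23.5, 30.3, 23.9 and 24.9 CPM with vehicle and at 27.9, 46.8, 32.0 and 40.8 CPM with PTH, so that PTH 1 lay within the vehicle range. Its log2 fold change was 0.52 (SE 0.15, adjusted p = 0.012). A stretch of 482 bases of its transcript is 95.2% identical to another annotated gene, so part of its count may be shared. Usp18, the protease that removes ISG15 and also blunts receptor signaling, did not pass the threshold (log2 fold change 0.13, SE 0.15).

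IFIT1, of the IFIT family, binds viral RNA that lacks the host's cap modification. Ifit1 (chr19:34640871-34650009, plus strand) was at 33.1, 48.3, 39.4 and 37.0 CPM with vehicle and at 111, 106, 80.4 and 118 CPM with PTH. The lowest PTH culture lay well above the highest vehicle culture, and the increase was 2.63-fold (log2 fold change 1.39, SE 0.13, adjusted p = 3.67e-06). Ifit3, on the same strand of the same gene cluster, was at 34.9, 47.7, 37.6 and 34.9 CPM with vehicle and at 54.6, 57.6, 43.6 and 59.6 CPM with PTH. Here PTH 3 lay below vehicle 2, and the log2 fold change was 0.47 (SE 0.12, adjusted p = 0.00612). Ifit3 shares 1700 bases at 97.8% identity with Ifit3b, so counts may be split between the pair. Ifit2, the third member of the cluster, ran from 16.7 to 18.7 CPM with vehicle and from 13.1 to 20.3 CPM with PTH and did not pass (log2 fold change -0.14, SE 0.13, adjusted p = 0.395).

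The ratio of Ifit1 to its neighbours was therefore compared between the treatments. On the log2 scale, the ratio of Ifit1 to Ifit3 was 0.02 ± 0.072 with vehicle and 0.94 ± 0.071 with PTH (SD, n = 4), and the ratio to Ifit2 was 1.14 ± 0.25 and 2.70 ± 0.26. Cmpk2 and Rsad2, which lie 12752 bases apart on opposite strands, were a further such pair. The log2 ratio of Cmpk2 to Rsad2 was 0.98 ± 0.034 with vehicle and 0.02 ± 0.31 with PTH. These ratios were examined, after their values were seen, for 14 pairs of members within 200000 bases of each other. In 5 pairs the treatments did not overlap, and 43% of single genes tested did not overlap either. In an exact test of 4 cultures against 4, p cannot fall below 0.0286, and these 5 pairs all reached that value. Adjusted over the 14 pairs, it became 0.0801. However large its shift, no pair could pass the threshold unless more pairs reached that value, so the test cannot decide here. The ratios are given as a description only.

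**Figure D3:**
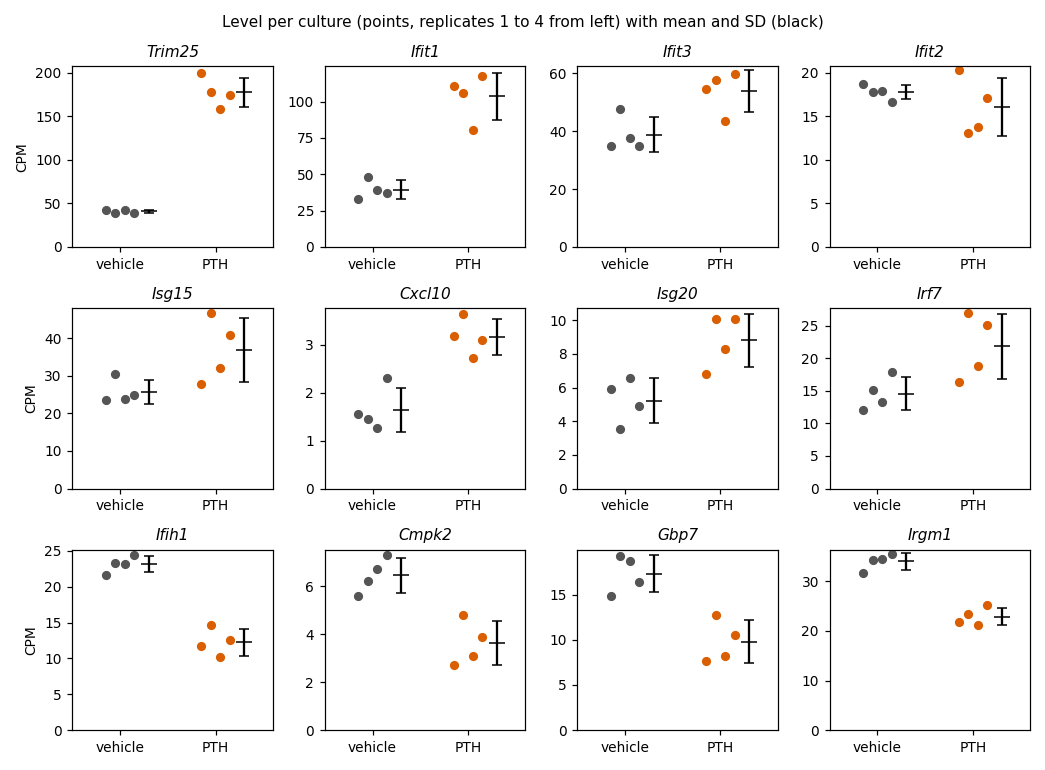
CPM in each culture (points, replicates 1 to 4 from left) with the mean and SD of 4 cultures (black) for 12 members: Trim25, the 3 Ifit genes, other upregulated members and the members with the largest decreases. For Trim25 and Ifit1 the PTH points stand clear above the vehicle points, for Ifih1, Cmpk2, Gbp7 and Irgm1 they stand clear below, and for Ifit2 (13.1 to 20.3 CPM with PTH) they spread around the vehicle points.

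Other upregulated members act outside the cell, degrade RNA or regulate transcription. Cxcl10, a chemokine that draws T cells through CXCR3, was low, at 1.56, 1.45, 1.25 and 2.30 CPM with vehicle and 3.18, 3.64, 2.72 and 3.09 CPM with PTH. The groups did not overlap, and the log2 fold change was 0.94 (SE 0.23, adjusted p = 0.00491). An exon of Cxcl10 overlaps Art3 on the other strand, and the strand setting of the counting is not given in the sources used here. Isg20, an exonuclease that degrades viral RNA, was at 5.89, 3.56, 6.59 and 4.88 CPM with vehicle and at 6.79, 10.1, 8.30 and 10.1 CPM with PTH. PTH 1 was only just above vehicle 3, and the log2 fold change was 0.75 (SE 0.19, adjusted p = 0.00734).

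All 4 transcription factors had positive estimates, and 2 of them passed. Irf7, which drives transcription of interferon genes after sensing of virus, was at 12.1, 15.1, 13.2 and 17.9 CPM with vehicle and at 16.3, 27.0, 18.8 and 25.1 CPM with PTH. PTH 1 lay below vehicle 4, and the log2 fold change was 0.58 (SE 0.17, adjusted p = 0.0127). Irf1, a factor induced by interferon, was tight within both groups, from 24.5 to 29.9 CPM with vehicle and from 35.1 to 37.3 CPM with PTH. The log2 fold change of Irf1 was 0.36 (SE 0.076, adjusted p = 0.00196). Exons of Irf7 and Irf1 overlap Phrf1 and Gm17334, respectively, on the other strand, so part of these counts may be shared. Stat2 did not pass (log2 fold change 0.38, SE 0.17, adjusted p = 0.0968), and PTH 1 (50.9 CPM) and PTH 3 (59.5 CPM) lay within the vehicle range of 46.7 to 59.6 CPM while PTH 2 reached 102 CPM. Irf9, the DNA-binding partner of STAT2, was at 34.3 ± 2.2 CPM with vehicle and 35.4 ± 5.1 CPM with PTH (SD, n = 4) and did not pass. Its assembled locus also holds Rnf31.

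The largest decrease of a member was in a sensor of viral RNA. Ifih1, which encodes MDA5, a sensor of long double-stranded RNA, lies at chr2:62595798-62646255 (minus strand). It was at 21.7, 23.3, 23.1 and 24.5 CPM with vehicle and at 11.7, 14.7, 10.2 and 12.5 CPM with PTH. No PTH culture came near the vehicle range, and Ifih1 fell 1.89-fold (log2 fold change -0.92, SE 0.11, adjusted p = 2.48e-05). Ddx58, which encodes RIG-I, the sensor that TRIM25 modifies, was at 59.4, 71.1, 70.5 and 68.0 CPM with vehicle and at 44.3, 49.02, 39.9 and 49.6 CPM with PTH. The groups did not overlap (log2 fold change -0.56, SE 0.086, adjusted p = 0.000228). Thus the ligase gene and the gene of its substrate moved in opposite directions. Dhx58, which encodes the third helicase of the family, was at 4.90 and 4.86 CPM in PTH 1 and 3 but at 10.1 and 10.4 CPM in PTH 2 and 4. The vehicle cultures held 9.44 to 11.4 CPM, and the gene did not pass (log2 fold change -0.44, SE 0.24). Eif2ak2, the kinase PKR that halts translation, and Zbp1, a sensor of Z-form nucleic acid, did not pass either (log2 fold changes 0.08, SE 0.11, and -0.21, SE 0.19).

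Cmpk2, a mitochondrial nucleotide kinase, was at 5.58, 6.20, 6.74 and 7.30 CPM with vehicle and at 2.73, 4.78, 3.11 and 3.90 CPM with PTH. All PTH values were lower than all vehicle values, and Cmpk2 fell 1.79-fold (log2 fold change -0.84, SE 0.18, adjusted p = 0.00265). Its neighbour Rsad2, which encodes the antiviral enzyme viperin, did not pass (log2 fold change 0.14, SE 0.20), with 2.86 to 3.59 CPM with vehicle and 2.43 to 4.47 CPM with PTH. Bst2, which encodes tetherin, a membrane protein that holds budding virus on the cell surface, did not pass either (log2 fold change 0.16, SE 0.092).

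Of the 5 GTPases of the GBP and IRG families, which attack membranes around intracellular pathogens, 3 fell, 1 rose and 1 did not pass. Gbp7 was at 14.9, 19.3, 18.7 and 16.4 CPM with vehicle and at 7.69, 12.8, 8.17 and 10.5 CPM with PTH. The groups were separate, and Gbp7 fell 1.77-fold (log2 fold change -0.83, SE 0.16, adjusted p = 0.00095). Its entry covers an assembled locus that also holds Gm43802, so the count may include that gene. Irgm1, a regulator of the other IRG proteins and of autophagy, was at 31.7, 34.4, 34.4 and 35.6 CPM with vehicle and at 21.7, 23.4, 21.3 and 25.1 CPM with PTH. Its spread was small in both groups (log2 fold change -0.57, SE 0.076, adjusted p = 7.31e-05). Gbp2 ran from 28.3 to 34.1 CPM with vehicle and from 22.2 to 24.3 CPM with PTH (log2 fold change -0.40, SE 0.076, adjusted p = 0.00109). Igtp moved the other way, from 12.5 to 14.4 CPM with vehicle to 14.4 to 17.9 CPM with PTH, where the closest values of the groups were nearly equal (log2 fold change 0.33, SE 0.093, adjusted p = 0.0114). Igtp shares its assembled locus with Irgm2, which rose too (39.8 ± 3.2 CPM with vehicle and 62.6 ± 6.4 CPM with PTH, SD, n = 4; log2 fold change 0.65, SE 0.087), and how far the counts of the pair are separate was not tested. Gbp3 spread from 11.1 to 23.7 CPM with PTH, beside 14.5 to 21.1 CPM with vehicle, and did not pass (log2 fold change -0.15, SE 0.20).

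DTX3L and PARP9 form an enzyme pair that ADP-ribosylates ubiquitin, and both genes fell. Dtx3l was at 23.6, 27.6, 28.5 and 24.1 CPM with vehicle and at 19.0, 18.3, 16.4 and 16.2 CPM with PTH (log2 fold change -0.57, SE 0.091, adjusted p = 0.000303). Parp9 ran from 30.9 to 35.6 CPM with vehicle and from 24.3 to 29.9 CPM with PTH (log2 fold change -0.31, SE 0.089, adjusted p = 0.0126). The genes lie head to head and overlap by 681 bases on opposite strands, so their counts may not be fully separate. Parp14, a related enzyme nearby, did not pass (log2 fold change -0.04, SE 0.16). Tap1, a subunit of the transporter that loads peptides for class I antigen presentation, was at 42.4, 41.8, 42.0 and 42.0 CPM with vehicle and at 34.3, 34.5, 29.5 and 34.9 CPM with PTH. The groups were separate (log2 fold change -0.34, SE 0.070, adjusted p = 0.00187), although an exon of Tap1 overlaps Psmb9 on the other strand.

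The oligoadenylate synthetases make a messenger that activates RNase L, and 1 of the 4 members passed. Oasl2, a relative with ubiquitin-like domains, was at 30.5, 42.1, 38.9 and 39.9 CPM with vehicle and at 18.9, 33.9, 21.4 and 34.6 CPM with PTH. PTH 2 and 4 reached into the vehicle range, and the log2 fold change of -0.48 (SE 0.18) had an adjusted p of 0.0497. It passed in only 3 of the 8 tests that each left out 1 culture: it did not pass without PTH 1 or 3 or without vehicle 2, 3 or 4, and the adjusted p ranged from 0.0198 to 0.13. Oas1a, Oas2 and Oas3 did not pass (log2 fold changes 0.01, 0.03 and -0.24, with SE 0.18, 0.31 and 0.42). Oas1a shares 1861 bases at 97.6% identity with Oas1g, so counts may be split between the pair. Oas2 ranged from 3.20 CPM in PTH 1 to 11.1 CPM in PTH 2, a wider range than the vehicle cultures showed (4.91 to 6.85 CPM). Mx1 and Mx2, GTPases that block nuclear or cytoplasmic steps of viral replication, had estimates of 0.55 (SE 0.30) and 0.35 (SE 0.30), and the pair shares 843 bases at 95.3% identity. The annotation lists Mx2 as a polymorphic pseudogene. The remaining members, Ifi35, Ifi44, Xaf1 and Rtp4, did not pass, with log2 fold changes from -0.43 to -0.01.

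Levels were compared between genes as vehicle CPM per kilobase of the longest annotated transcript. Bst2 was highest, at 91.1 CPM per kilobase, followed by Isg15 (33.9), Ifit3 (22.2), Ddx58 (17.4) and Ifi35 (15.8). The lowest were Oas3 (0.258), Mx1 (0.409), Cxcl10 (0.735) and Rsad2 (0.778). Trim25 stood at place 17 of 39 by this measure with vehicle (7.31 CPM per kilobase) and at 31.8 CPM per kilobase with PTH. Cultures treated with vehicle therefore contained transcripts of all 39 genes.

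Many of the members varied together among the PTH cultures. PTH 2 was the highest PTH culture for 19 of the 39 members (48.7%, beside 32.2% of all genes tested) and PTH 4 for 15 (38.5%, beside 16.4%). PTH 1 was the lowest for 21 (53.8%, beside 31.2%) and PTH 3 for 16 (41.0%, beside 20.3%). The median deviation of the members from the mean of the PTH group, on the log2 scale, was -0.32 in PTH 1, 0.24 in PTH 2, -0.18 in PTH 3 and 0.13 in PTH 4, whereas the median over all genes lay between -0.0041 and 0.015. With vehicle the medians were closer, from -0.11 in vehicle 1, the lowest vehicle culture for 23 members, to 0.052 in vehicle 2. The split of PTH 1 and 3 from PTH 2 and 4 was seen in the values of Dhx58 and Oasl2, and also in the upregulated genes Isg15 and Irf7. Not all members followed it: Trim25, Ifit2 and Dtx3l were the 3 members highest in PTH 1. Ifit1 was at 111 CPM in PTH 1 and 106 CPM in PTH 2. PTH 1 was the deepest library and PTH 2 the shallowest, and the part of depth in the split was not tested.

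**Figure D4:**
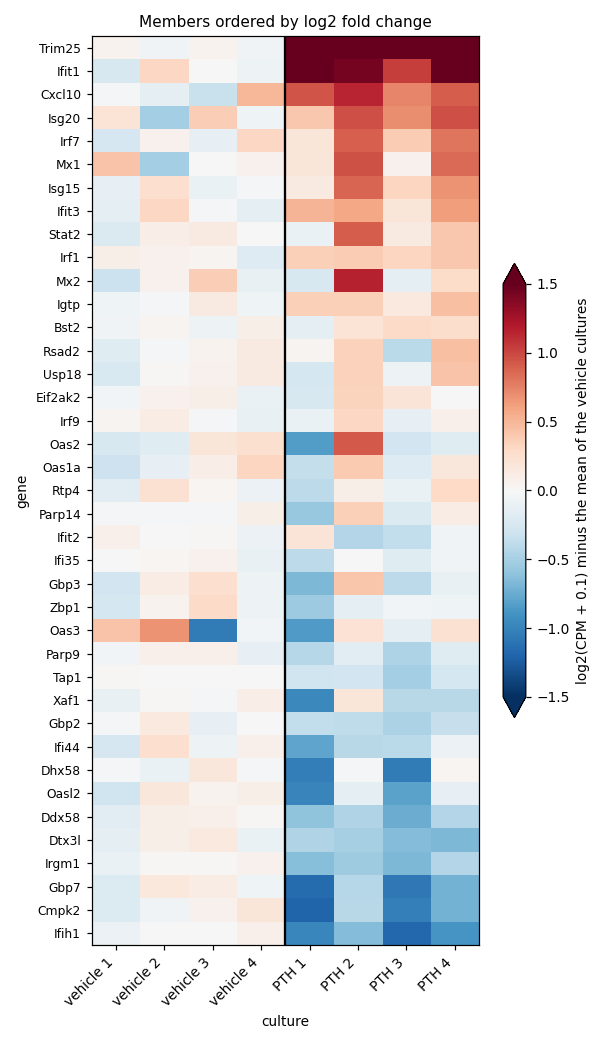
Level of the 39 members in each culture as log2(CPM + 0.1) minus the mean of the vehicle cultures, with genes ordered by log2 fold change and color clipped at 1.5 in either direction. Columns PTH 2 and PTH 4 are warmer than PTH 1 and PTH 3 for most genes in the middle of the order, and the median over members is -0.36, 0.31, -0.19 and 0.074 in PTH 1 to 4.

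Macrophages also express interferon-stimulated genes. All 15 macrophage markers were measured and all had positive estimates, and 3 passed: Tyrobp (log2 fold change 0.86), Lyz2 (0.63) and Cd14 (0.50). All 3 rose, a share of 20% beside 23.3% of all genes tested that rose and 45.8% called in either direction. Of the 15 markers, 1 did not overlap between treatments, beside 43% of all genes in either direction. The summed level of the 15 markers was 1397, 1139, 1273 and 1862 CPM in vehicle 1 to 4 and 1778, 2276, 2172 and 1961 CPM in PTH 1 to 4. Vehicle 4 thus lay within the PTH range. The largest value of a single marker was 1593 CPM, so in that culture 1 marker made up most of the sum. Among the PTH cultures, PTH 2 had the highest and PTH 1 the lowest macrophage sum, as for the median deviation of the members, and PTH 3 and 4 came in the opposite order. The part of macrophages in these results was not tested. Adipocyte markers summed to 37.2 to 49.5 CPM with vehicle and 31.3 to 47.9 CPM with PTH, and endothelial markers to 6.15 to 6.97 and 5.66 to 7.11 CPM, with Emcn at 0 in every culture.

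Interferon itself was not detected at a level that could be tested. Of 21 listed interferon genes, including Ifnb1, Ifng and the Ifna family, 19 had 0 counts in all 8 cultures and none passed the filter. A count of 0 allows up to 3 counts, which corresponds to 0.0535 to 0.0893 CPM per library, and these limits cover counting error only. Ifnz had 7 to 11 counts per vehicle culture and 1 to 7 per PTH culture, and Ifnk had at most 4.

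Of 9 receptor and JAK genes, 2 rose, 2 fell and 5 did not pass, a called share of 44.4% beside 45.8% of all genes tested. The chains of the type II receptor moved in opposite directions: Ifngr1 rose from 46.1 ± 1.9 to 61.9 ± 6.9 CPM (SD, n = 4; log2 fold change 0.43, SE 0.082) and Ifngr2 fell from 87.4 ± 3.5 to 61.8 ± 7.0 CPM (log2 fold change -0.50, SE 0.082). Ifnar1 and Ifnar2 did not pass (log2 fold changes 0.05, SE 0.072, and 0.13, SE 0.078), nor did Ifnlr1, Il10rb and Jak2. Jak1 rose (log2 fold change 0.30, SE 0.064) and Tyk2 fell (log2 fold change -0.66, SE 0.12).

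Genes that inhibit interferon signaling included the largest increase in these lists, with 7 of 15 up, 5 down and 3 that did not pass. The called share was 80% beside 45.8% of all genes tested (46.7% upward beside 23.3%, and 33.3% downward beside 22.5%). Socs3, a feedback inhibitor of JAK kinases downstream of gp130 cytokines, was at 15.5, 15.4, 14.1 and 12.6 CPM with vehicle and at 470.2, 437, 417 and 459.9 CPM with PTH. Each PTH culture was far above the vehicle range (log2 fold change 4.95, SE 0.092, adjusted p = 5.44e-12). Socs1, the inhibitor that acts on interferon receptors and JAK kinases most directly, was at 12.9, 11.6, 10.8 and 11.0 CPM with vehicle and at 67.6, 61.3, 59.6 and 65.3 CPM with PTH. It rose with a log2 fold change of 2.45 (SE 0.080, adjusted p = 2.5e-10), again without overlap. Rnf125, a ligase that marks RIG-I for degradation, rose from low levels (log2 fold change 1.44, SE 0.20). Nlrx1 (log2 fold change -0.78), Pias4 (-0.53) and Irf2 (-0.45), which restrain MAVS, STAT proteins and interferon-responsive promoters respectively, fell.

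In the pathway from sensing to interferon, 7 of 18 genes fell, 2 rose and 9 did not pass. The called share was 50% beside 45.8% of all genes tested (38.9% downward beside 22.5%, and 11.1% upward beside 23.3%). Mavs, the adaptor of RIG-I and MDA5 on mitochondria, fell from 34.1 ± 2.1 to 21.9 ± 1.8 CPM (SD, n = 4; log2 fold change -0.64, SE 0.079, adjusted p = 4.11e-05). The toll-like receptors Tlr4 (log2 fold change -0.88, SE 0.091) and Tlr3 (-0.69, SE 0.13) fell. Myd88, an adaptor of Tlr4, rose (log2 fold change 0.78, SE 0.083). The kinase gene Tbk1 was close to the threshold (log2 fold change 0.22, SE 0.083, adjusted p = 0.0496) and passed in 1 of the 8 tests that left out a culture. The median log2 fold change of the 18 genes was -0.17.

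**Figure D5:**
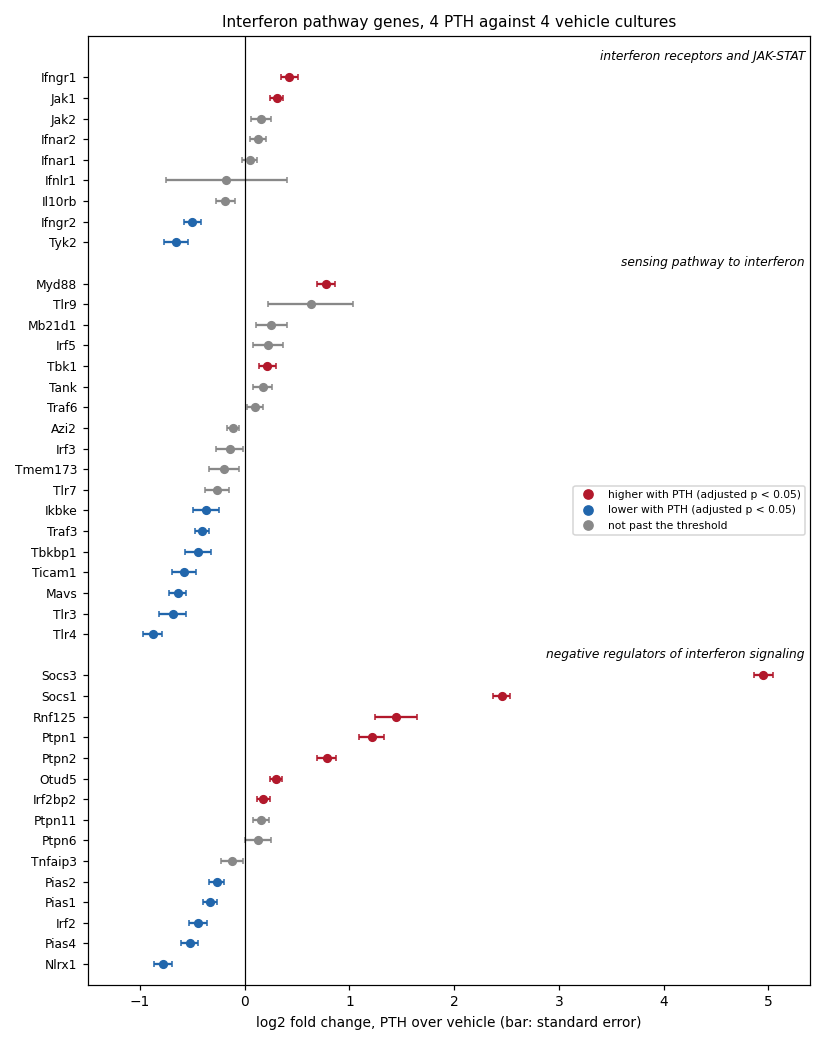
Log2 fold change of PTH over vehicle, with the standard error as bars, for the receptor and JAK genes (9), the sensing pathway (18) and the negative regulators (15). Socs3 (4.95), Socs1 (2.45) and Rnf125 (1.44) lie far to the right, Tlr4 (-0.88) and Nlrx1 (-0.78) are the leftmost, and colors mark genes past the threshold as in the plot of the 39 members.

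A list of 80 other interferon-stimulated genes was called in both directions as well, with 12 of 78 tested genes up, 20 down and 46 that did not pass, a called share of 41.0% beside 45.8% of all genes (15.4% upward beside 23.3%, and 25.6% downward beside 22.5%). Their median log2 fold change was -0.03, and 28 of the 78 genes did not overlap between treatments, beside 43% of all genes. The largest increases were in Bcl3, a regulator of NF-kappaB (log2 fold change 4.15, SE 0.11), Fgl2, a secreted immune regulator (2.74, SE 0.12), and Helz2, a helicase coactivator of nuclear receptors (2.04, SE 0.14). The largest decreases were in Samd9l, an antiviral regulator of translation (log2 fold change -1.36, SE 0.11), Parp11 (-0.94, SE 0.11) and Trim34a (-0.88, SE 0.15), whose locus also holds Trim34b. The response element core was in 25 of the 64 genes of this list that have a window (39.1%).

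Class I antigen presentation is a further target of interferon. Of 21 genes, 3 rose, 1 fell and 17 did not pass, a called share of 19.0% beside 45.8% of all genes tested, with a median log2 fold change of 0.02. H2-Q4 rose (log2 fold change 0.36, SE 0.062), as did the proteasome genes Psme2 (0.42, SE 0.16) and Psmb8 (0.18, SE 0.064), and Tapbpl, a peptide editor, fell (-0.34, SE 0.093). Psme2 passed in 2 and Psmb8 in 1 of the 8 tests that left out a culture, whereas H2-Q4 and Tapbpl passed in all 8.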

How the data were processed

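RNA was sequenced from 4 PTH and 4 vehicle cultures, grouped by their labels. The authors prepared poly(A) libraries, aligned reads to GRCm38 (mm10 in the submitters' processing notes) with HISAT2, assembled transcripts with StringTie and deposited raw counts per gene, which are not normalized. The annotation release, the strand setting and the read length used to turn coverage into counts are not given in the sources used here. The table lists 47706 entries, 26477 of them with any count, and the 2 without a symbol held at most 0.00526% of a library.

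The groups were compared with edgeR 4.0.16 in R 4.3.3 (TMM normalization, filterByExpr with a minimum count of 10 and total of 15, two-sided quasi-likelihood F-test, Benjamini-Hochberg adjustment over 16736 genes, threshold 0.05). CPM values use TMM-normalized library sizes. DESeq2 1.42.0, its size factors in edgeR, no filter, the replicate number as a block, summing by symbol, a bound of 1 on the absolute log2 fold change and leaving out each culture were alternatives. Over all genes tested, the numbers showed no pairing of the cultures: deviations of same-numbered cultures correlated at -0.041 to 0.027. Among the 39 members, vehicle 1 and PTH 1 were the lowest of their groups for 23 and 21. A pairing for these genes alone was not tested. On simulated data for this comparison (16736 genes, 200 changed), edgeR recovered 92% with 11 false calls. In the cultures 7669 genes were called, and recovery at such a share, or separately for small changes, was not tested. Positions, exon overlaps and transcript lengths came from GENCODE M21 and similar sequence from blastn 2.17.0 (at least 150 bases at 95% identity). Motifs were sought in RefSeq promoter windows.

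The members and lists were chosen with earlier results of these data known. Values were given per culture for members past the threshold with an absolute log2 fold change of 1 or more and for at least the 3 largest changes each way, and for other lists up to 3 called genes each way were named, with the receptors and Tnfsf11. A gene that belongs to the receptor and kinase pathway was left out of its list and is not reported here. The ratios of neighbouring genes were chosen after their values were seen.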

Additional observations from a re-analysis of the deposited data

Results flagged for a closer look

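In 2 of the 78 groups of 4 cultures that the 39 genes give, 1 culture stood far from the others of its group, by Dixon's criterion at the 95% level. Chance flags about 1 in 20 groups. Parp14 was at 26.5 CPM in vehicle 4, while the other vehicle cultures lay between 24.4 and 24.6 CPM. Tap1 was at 29.5 CPM in PTH 3, while the other PTH cultures lay between 34.3 and 34.9 CPM, and its log2 fold change stayed between -0.36 and -0.29 when any 1 culture was left out.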

How the results depend on the processing

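The counts of 9 upregulated and 10 downregulated members stayed within 9 to 11 and 9 to 12 under the other tools, scalings and filter and when each culture was left out, and 18 or 19 of the 19 called members were shared. The exception was a minimum log2 fold change of 1, which left 2 and 0. With the replicate block, 9 members rose and 11 fell, and Ifi44 was gained, as it was with DESeq2 and without PTH 4 or vehicle 1. Leaving out PTH 1 added Stat2, Bst2 and Ifit2, leaving out PTH 2 added Xaf1, and leaving out PTH 4 added Dhx58. Oasl2 was lost without the filter. Of the 80 other interferon-stimulated genes, 11 to 14 rose and 15 to 21 fell over the same alternatives. The receptor gene Ifnar2 passed without PTH 2. The median log2 fold change of the members ran from -0.13 (without PTH 2) to 0.095 (without PTH 1).

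Signs changed in 9 genes that did not pass the threshold, for a cause that was not tested. Oas1a was at -0.000453 with DESeq2, -0.0337 without the filter and -4.76e-05 with the replicate block, and Oas2 at -0.0185 without the filter and -0.103 with the block. With each culture left out in turn, the estimates ran from -0.129 to 0.124 for Oas1a, -0.429 to 0.24 for Oas2, -0.194 to 0.0953 for Parp14, -0.133 to 0.0975 for Rtp4, -0.0025 to 0.177 for Eif2ak2, -0.0338 to 0.516 for Mx2, -0.0421 to 0.0932 for Irf9, -0.504 to 0.00775 for Oas3 and -0.00866 to 0.111 for Ifnar1. Counts per culture were lowest in Oas3 (from 23), Mx1 (from 40) and Cxcl10 (from 60), where depth limits precision.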
